A study of Homo sapiens with 4 samples.

Results

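The genes described here are 10 members of the BCL2 family of apoptosis regulators: BCL2, BCL2L1, BCL2L2, MCL1, BAK1, BCL2L11, BID, BAD, BNIP3 and BNIP3L. They were found as the probe sets annotated to exactly 1 of these symbols, which gave 24 of the 22277 probe sets on the array and 10 of its 11963 named genes. RNA came from BJ-TE, a fibroblast line made from human foreskin cells (BJ). Its cells expressed an shRNA, a hairpin RNA for knockdown, aimed at p73, a transcription factor related to p53, or the control shRNA that the labels call ns, and each kind was collected at 100% and at 40% confluence. This gives 4 groups of 1 Affymetrix array: p73 shRNA at 100%, ns shRNA at 100%, p73 shRNA at 40% and ns shRNA at 40% confluence. Nothing in the labels says that the cultures were independent. Each p-value here measures only the spread between these arrays, pooled wholly or partly over genes.

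The BCL2 family controls whether the outer mitochondrial membrane is opened during the intrinsic pathway of apoptosis. Survival proteins such as BCL2, BCL-XL (from BCL2L1), BCL-W (from BCL2L2) and MCL1 bind and hold pore-forming proteins such as BAK, while BH3-only proteins such as BIM (from BCL2L11), BID and BAD bind the survival proteins or activate the pore formers. BNIP3 and BNIP3L (also called NIX) are outer-membrane proteins best known as mitophagy receptors, which tether mitochondria to the autophagy machinery, and BNIP3 is a known target of the hypoxia-inducible factors (HIF).

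Expression is given as the deposited intensity of a probe set, a linear value with no unit. Each array had the same trimmed mean (500.1 to 500.2), and median intensities were 119.6 (p73 shRNA) and 122 (ns shRNA) at 100% and 105 (p73 shRNA) and 106 (ns shRNA) at 40% confluence. Ratios are on the scale of log2(intensity + 11.6), which understates changes of dim genes. A gene was tested when its brightest probe set had a mean of at least 6.94 on this scale, an intensity of about 111. This kept 6759 genes. The hairpin's own target cannot be checked: the single TP73 probe set read 2.04 (p73 shRNA) and 1.65 (ns shRNA) at 100% and 2.09 (p73 shRNA) and 1.68 (ns shRNA) at 40%, at the bottom of all arrays. Fibroblast markers were above the filter in 16 of 16 cases. The same held for 5 of 7 markers of smooth muscle and pericytes, 3 of 11 epithelial, 2 of 7 endothelial, 1 of 6 blood and 1 of 5 melanocyte markers. In RNA of a whole culture, fewer expressing cells and less RNA per cell cannot be told apart.

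Of the 24 probe sets, 15 lay above the brightness filter and 9 below it, and 8 of the 10 genes had a probe set above it. BCL2 and BCL2L11 had none. The plot of intensity by array shows all 24.

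**Figure D1:**
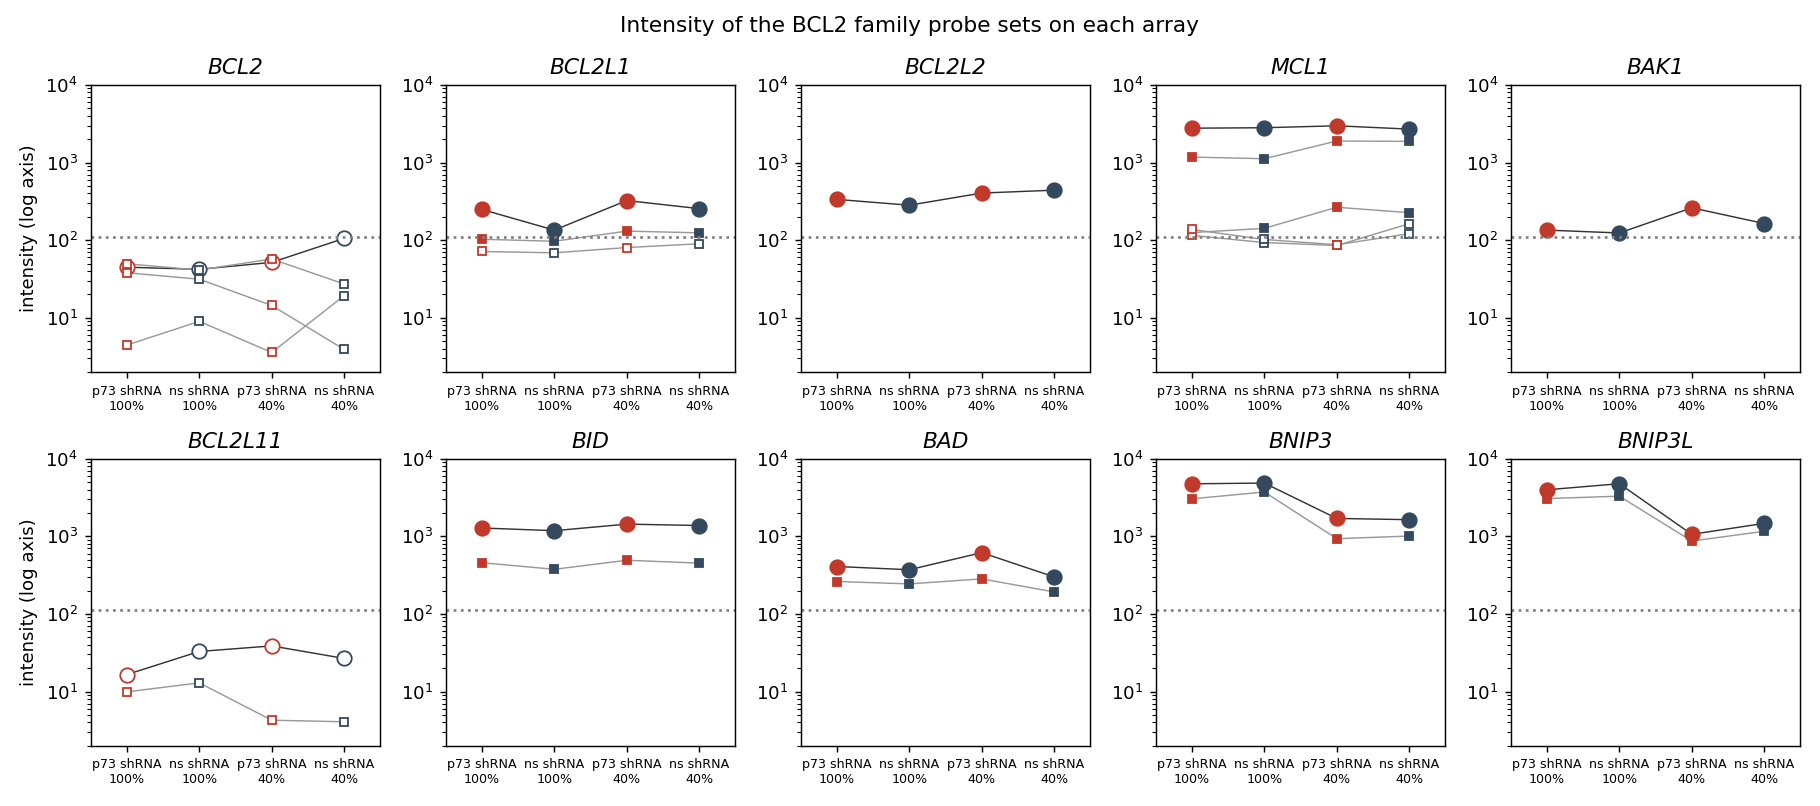
Intensity (log axis, no unit) of every BCL2 family probe set on the 4 arrays, with p73 shRNA in red and ns shRNA in dark blue; large circles are the brightest probe set of a gene, small squares its others, open symbols lie below the brightness filter, the dotted line is an intensity of about 111 and thin lines join the values of 1 probe set. BNIP3 and BNIP3L stand higher on both arrays of confluent cells, and all probe sets of BCL2 and BCL2L11 are below the filter.

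The first contrast of the design sets 100% against 40% confluence. The BNIP3 pair rose with either hairpin: BNIP3 averaged 2.86-fold and BNIP3L 3.46-fold higher at 100% confluence. The survival gene BCL2L1 and the pore former BAK1 fell, to 0.653 and 0.644 of their level at 40%. BCL2L2, MCL1, BID and BAD did not pass the test. So 4 of the 8 members above the filter were called (limma, Benjamini-Hochberg adjusted p below 0.05), 2 higher and 2 lower, beside 36.6% of all 6759 genes, 20.4% higher and 16.1% lower. Without the intensity trend in limma the same count was 2 higher and 2 lower, beside 18.3% and 12.3% of all genes. In both pairs of arrays 4 of 8 members were lower at confluence (BCL2L1, BCL2L2, BAK1 and BID), as were 37.0% of all genes. These shares are near the background. The members' median log2 ratio was -0.17, and that of all genes was 0.01.

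BNIP3, a mitophagy receptor of the outer mitochondrial membrane, was measured by 2 probe sets. The brighter read 4746 at 100% and 1699 at 40% confluence with p73 shRNA, and 4852 at 100% and 1637 at 40% with ns shRNA. Both confluent arrays were higher than both arrays at 40%. The share of all genes that separate in this way was not counted, here or for the members below. The log2 ratio was 1.48 with p73 shRNA and 1.56 with ns shRNA, an average of 1.52 (SE 0.14, limma adjusted p 7.73e-24).

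The second BNIP3 probe set read 3039 at 100% and 931 at 40% with p73 shRNA, and 3724 at 100% and 1007 at 40% with ns shRNA. Its log2 ratios, 1.69 and 1.87, run the same way as those of the first. The adjusted p of the gene treats a spread pooled over genes of like brightness as known. Without the intensity trend in limma it was 7.39e-06.

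BNIP3L, the paralogue of BNIP3 that clears mitochondria from maturing red blood cells, gave a brighter probe set with 3973 at 100% and 1059.8 at 40% confluence under p73 shRNA. Under ns shRNA it read 4762 at 100% and 1468 at 40%. The log2 ratios were 1.89 with p73 shRNA and 1.69 with ns shRNA (mean 1.79, SE 0.15, limma adjusted p 6.29e-32, and 1.30e-06 without the trend). Its other probe set read 3063 at 100% and 869 at 40% with p73 shRNA, and 3287 at 100% and 1160.3 at 40% with ns shRNA, so the stages did not overlap there either. Both genes were at least 2-fold higher at confluence with each hairpin, as were 3.23% of all genes. The 4 probe sets of the pair had log2 ratios from 1.48 to 1.89 across both hairpins.

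**Figure D2:**
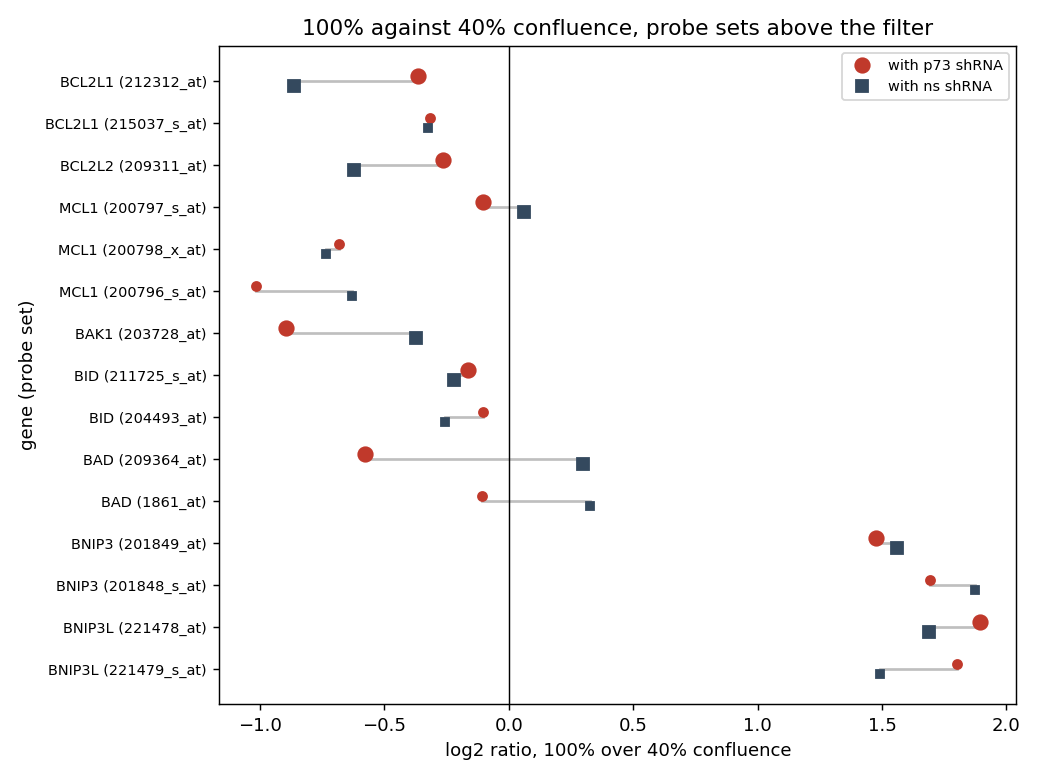
Log2 ratio of 100% over 40% confluence for the 15 probe sets above the filter, with p73 shRNA as red circles and ns shRNA as dark squares, each from 1 pair of arrays; larger symbols mark the probe set used in the test of the gene. All 4 probe sets of BNIP3 and BNIP3L lie between 1.48 and 1.89, and the MCL1 probe sets differ among themselves.

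Because BNIP3 rose and is a known HIF target, the sequence before its start is shown, with the core letters of the hypoxia response element in capitals. It is from RefSeq on GRCh38.p14, chr10:131981924-131982173 on the minus strand, the 250 bases before the annotated start. The motifs searched on both strands were ACGTG and GCGTG, and adjoining matches share a capital run.
BNIP3: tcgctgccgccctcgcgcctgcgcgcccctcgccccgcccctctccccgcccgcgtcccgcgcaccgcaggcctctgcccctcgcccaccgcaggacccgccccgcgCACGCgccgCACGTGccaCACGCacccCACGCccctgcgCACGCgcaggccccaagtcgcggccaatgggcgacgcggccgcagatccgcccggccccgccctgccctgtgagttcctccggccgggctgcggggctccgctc
ACGTG matched at 2 places, which are both strands of the same palindrome, and GCGTG at 4. Of 35116 promoter windows of the same length, 18.5% held ACGTG, 32.2% held GCGTG and 43.2% held either. A share of 1.12% held GCGTG at 4 or more places. That cut of 4 is the count of BNIP3 itself, and the windows were not matched for C and G content. Matches of 5 letters are common in sequence as rich in C and G as this, and they are a description of the window, not a measured site. Promoter sequence was matched for 7 of the 10 members, some with several windows. Windows of other members held the letters too. ACGTG matched at 2 places in 2 of the 5 BID windows. GCGTG matched at 2 places in that of BCL2L11. It matched at 1 in 2 other BID windows, in both BAD windows and in 1 of 2 for BCL2L1. Windows of the same gene can overlap and a palindrome counts on both strands, so these counts may hold a site more than once. The windows of BAK1 and BCL2 had 0 of either. BCL2L2, MCL1 and BNIP3L had no entry in the table used.

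Among the survival genes, BCL2L1 encodes BCL-XL in its long form and a death-promoting short form by splicing. Its brightest probe set read 249 at 100% and 324 at 40% confluence with p73 shRNA, and 135 at 100% and 255 at 40% with ns shRNA. Each hairpin gave a lower value at confluence, but the stages nearly met, since p73 shRNA at 100% was only a little under ns shRNA at 40%. The log2 ratios were -0.36 and -0.86 (average -0.61, SE 0.24, limma adjusted p 0.0302).

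The other BCL2L1 probe sets were lower too, by less. One read 103 at 100% and 131 at 40% with p73 shRNA, and 96.8 at 100% and 124 at 40% with ns shRNA. In a fit of every probe set above the filter its average of -0.32 was not called (limma adjusted p 0.436). The dimmest lay below the filter, with log2 ratios of -0.15 and -0.34. With the mean of all 3 probe sets the BCL2L1 call was lost (average -0.39, limma adjusted p 0.237), and it was lost without the brightness filter (limma adjusted p 0.15).

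BCL2L2, which encodes BCL-W, read 335 at 100% and 405 at 40% confluence with p73 shRNA, and 282 at 100% and 441 at 40% with ns shRNA. Both confluent values were below both values at 40%, a separation whose share among all genes was not counted. The average log2 ratio of -0.44 (SE 0.21) missed the threshold (limma adjusted p 0.0771), with a 95% interval of -0.85 to -0.04. After quantile normalization the limma adjusted p was 0.0359 and after median scaling 0.00756. A probe set shared by BCL2L2 and PABPN1 was left out because its signal cannot be given to 1 gene.

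MCL1, a survival protein with a short half-life, gave probe sets that disagree. The brightest read 2771 at 100% and 2976 at 40% with p73 shRNA, and 2809.6 at 100% and 2696 at 40% with ns shRNA, and its average log2 ratio was -0.02 (SE 0.14, limma adjusted p 0.928). The next read 1176 at 100% and 1895 at 40% with p73 shRNA, and 1120.0 at 100% and 1873 at 40% with ns shRNA. A dimmer one read 125 at 100% and 265 at 40% with p73 shRNA, and 142 at 100% and 226 at 40% with ns shRNA.

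The stages did not overlap on either of the last pair of MCL1 probe sets, a separation whose share among all probe sets was not counted. In the fit of 9952 probe sets, where 19.6% were called higher and 15.7% lower, these fell by 0.71 (limma adjusted p 5.43e-05) and 0.82 (limma adjusted p 0.00658) on the log2 scale. The brightest stayed uncalled there. Affymetrix names with _x_at mark probes that may bind other sequences, and the suffix _s_at marks probes shared by several transcripts. The bright flat probe set and the dimmest of these 3 carry _s_at, the middle one _x_at. Which MCL1 transcripts each reads is not given in the files. The remaining 2 MCL1 probe sets were below the filter and their ratios differed in sign between hairpins. With the mean of all 5 probe sets MCL1 averaged -0.31 (limma adjusted p 0.171). No single direction is therefore given for MCL1 at confluence.

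BCL2, the founding survival gene of the family, was dim throughout. Its 4 probe sets read 4.44 to 49.6 with p73 shRNA and 9.0 to 42.1 with ns shRNA at 100%, and 3.57 to 57.2 with p73 shRNA and 3.91 to 105 with ns shRNA at 40% confluence. Their average ratios ran from -0.65 to 1.20 and differed in sign. No fold change is drawn from values this low, and this signal does not show that BCL2 is absent. The call rule could not reach BCL2L11 either. The 2 probe sets of this gene, which encodes the BH3-only protein BIM, read 9.90 and 16.5 with p73 shRNA and 12.9 and 32.8 with ns shRNA at 100%, and 4.27 and 38.7 with p73 shRNA and 4.08 and 26.7 with ns shRNA at 40%.

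BAK1 encodes the pore former BAK and had 1 probe set. It read 135 at 100% and 261 at 40% confluence with p73 shRNA, and 124 at 100% and 164 at 40% with ns shRNA. The stages did not overlap, a separation whose share among all genes was not counted. The log2 ratios were -0.90 and -0.37 (average -0.64, SE 0.27, limma adjusted p 0.0479, and 0.0159 without the trend). Its values were not far above the filter, and without the filter the limma adjusted p was 0.205.

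The BH3-only genes above the filter did not pass. BID, whose protein is cut by caspase-8 to link death receptors to mitochondria, read 1279 at 100% and 1435 at 40% with p73 shRNA, and 1181 at 100% and 1377 at 40% with ns shRNA. Its average log2 ratio was -0.19 (95% interval -0.50 to 0.11, limma adjusted p 0.352), and its second probe set averaged -0.18. BAD, whose protein is kept from BCL-XL by phosphorylation and 14-3-3 binding, went opposite ways: the log2 ratio was -0.58 with p73 shRNA and 0.30 with ns shRNA (average -0.14, limma adjusted p 0.618). Its second probe set showed the same signs, -0.11 and 0.33.

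**Figure D3:**
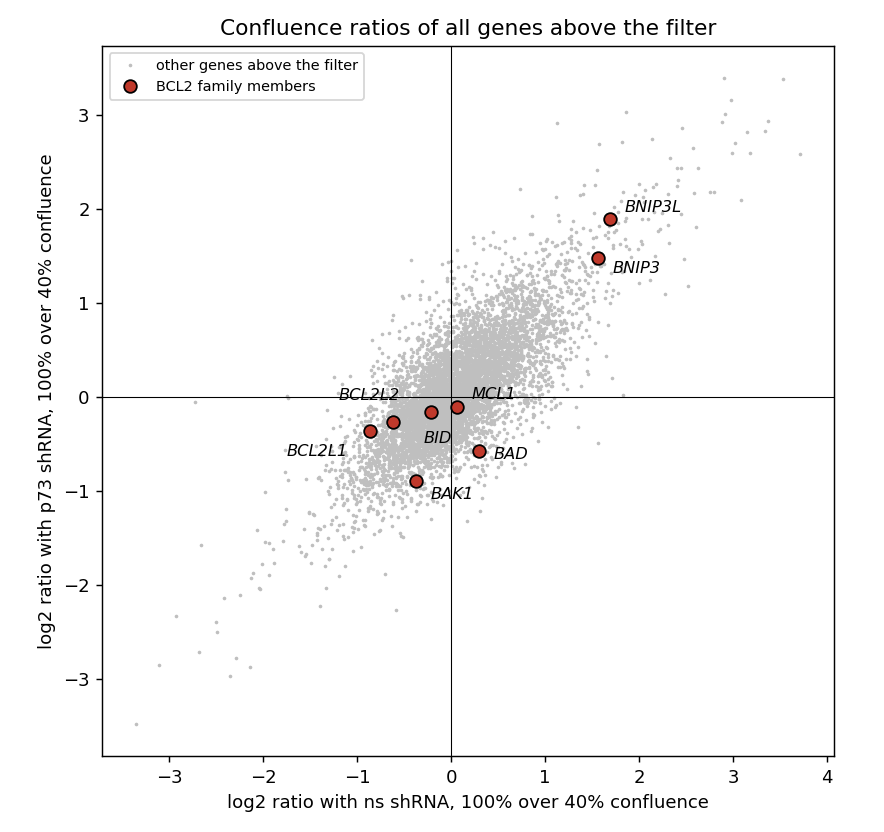
Log2 ratio of 100% over 40% confluence with p73 shRNA (vertical axis) and with ns shRNA (horizontal axis) for the 6759 genes above the filter, each grey point a gene, with the 8 BCL2 family genes in red; the axes share no array. BNIP3 and BNIP3L lie at the upper right, at 1.48 or above on both axes, and BAD is the member farthest from equal ratios.

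These confluence values rest on the scaling of the arrays and on their RNA. Dividing each array by its median in place of its trimmed mean moved the median of all confluence ratios to -0.18, and 822 genes were then called higher and 1982 lower, against 1382 and 1089. Under that scaling BNIP3 averaged 1.32, BNIP3L 1.60, BCL2L1 -0.80 and BAK1 -0.82, all still called, and BCL2L2 and BID were called lower as well. The shift of the median itself is part of these values. The 3' to 5' ratio of the beta-actin control probe sets was 1.38 (p73 shRNA) and 1.47 (ns shRNA) at 100%, against 1.09 (p73 shRNA) and 1.24 (ns shRNA) at 40%. That of GAPDH differed less, with 1.02 (p73 shRNA) and 1.02 (ns shRNA) at 100%, against 0.979 (p73 shRNA) and 0.935 (ns shRNA) at 40%. The part of RNA quality in these ratios was not tested. The summed intensity of the 16 fibroblast markers was 116392 (p73 shRNA) and 113079 (ns shRNA) at 100%, against 105161 (p73 shRNA) and 94133 (ns shRNA) at 40%, and 10 of them were called higher and 2 lower at confluence. The summed intensity of the 5 smooth muscle and pericyte markers above the filter was lower at confluence, with 2238 (p73 shRNA) and 2967 (ns shRNA) at 100%, against 3036 (p73 shRNA) and 3607 (ns shRNA) at 40%. Of these 5, 1 was called higher and 1 lower at confluence, named after their values were seen. SMTN fell, with 502 (p73 shRNA) and 516 (ns shRNA) at 100%, against 1458 (p73 shRNA) and 1413 (ns shRNA) at 40%, a difference larger than that of the sum with each hairpin. ACTA2 rose, with 542 (p73 shRNA) and 554 (ns shRNA) at 100%, against 258 (p73 shRNA) and 364 (ns shRNA) at 40%. The part of these markers in the family's ratios was not tested either.

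The p73 hairpin was compared with the ns hairpin to ask which genes differ when p73 is targeted. No member of the family passed the test: 0 of 8 (limma, Benjamini-Hochberg adjusted p below 0.05), beside 2.72% of all genes called. At an unadjusted p below 0.05, the count was 3 of 8 (BCL2L1, BAD and BNIP3L), against 13.6% of all genes, and without the intensity trend limma called 0 of 8 members and 74 of 6759 genes, with 2 of 8 at an unadjusted p below 0.05, against 11.9% of all genes. The members' median log2 ratio was 0.07, and that of all genes was 0.00. BCL2L1, BAK1, BID and BAD were higher with p73 shRNA at both stages, 4 of 8 where 29.0% of all genes were. BNIP3L was lower at both.

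**Figure D4:**
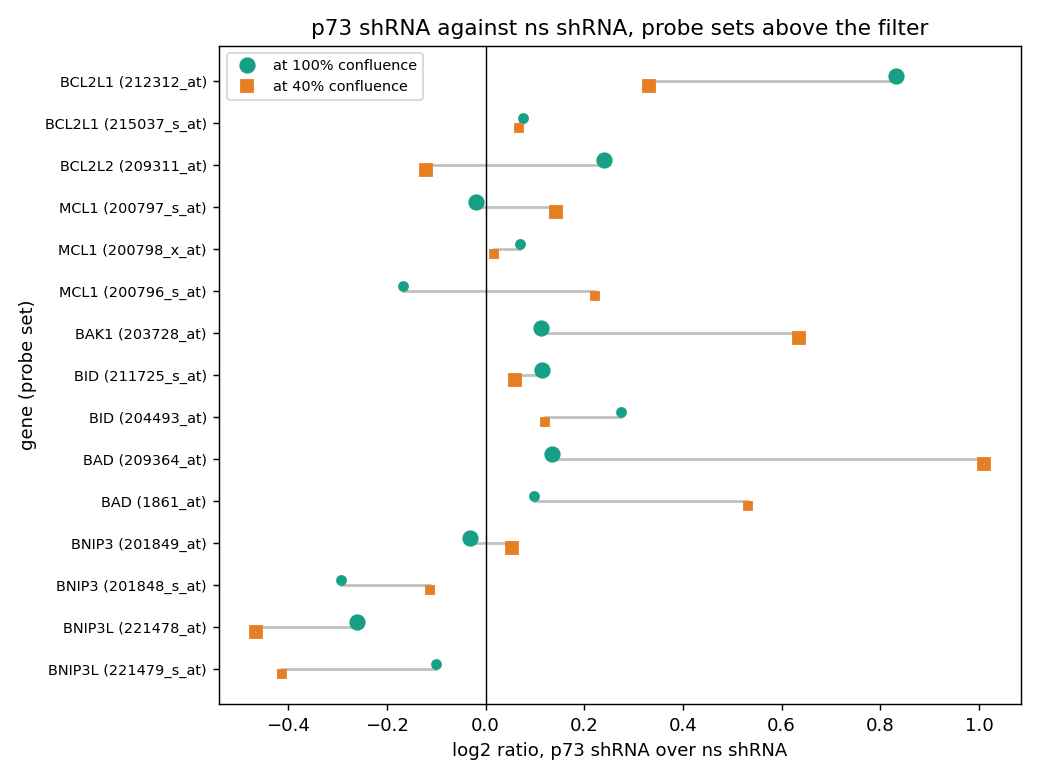
Log2 ratio of p73 shRNA over ns shRNA for the 15 probe sets above the filter, at 100% confluence as green circles and at 40% as orange squares, each from 1 pair of arrays; larger symbols mark the probe set used in the test of the gene. The widest gap between stages is that of BAD, 0.13 at 100% and 1.01 at 40%.

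BAD had the smallest p of the members with the intensity trend and the filter, but not without them: BCL2L1 had the smallest without the trend (limma adjusted p 0.178, against 0.254 for BAD) and BNIP3L without the filter (limma adjusted p 0.505, against 0.535 for BAD). Its brighter probe set read 408 with p73 shRNA and 371 with ns shRNA at 100%, and 615 with p73 shRNA and 299.7 with ns shRNA at 40% confluence. The log2 ratio was 0.13 at 100% and 1.01 at 40%, an average of 0.57 (SE 0.20, 95% interval 0.18 to 0.96, limma adjusted p 0.0918). Both ratios lie outside this interval, because it uses a spread pooled over genes of like brightness and not that of BAD itself. BAD was among the 0.636% of all genes at least 2-fold higher with p73 shRNA at 40%, by a small margin. It was picked as the member with the largest such ratio, so this share does not measure how rare its ratio is. The second BAD probe set read 262 with p73 shRNA and 244 with ns shRNA at 100%, and 283 with p73 shRNA and 192 with ns shRNA at 40%. Its log2 ratio at 40% was 0.53, below 2-fold.

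On both BAD probe sets the array of p73 shRNA at 40% was the highest and that of ns shRNA at 40% the lowest. The array of p73 shRNA at 40% also had the brightest upper end of all, where 1% of probe sets exceeded an intensity of 13157, against 10196 to 11420 on the others; its part in the ratio was not tested. After quantile normalization, which makes the 4 distributions equal, the BAD ratio at 40% was 1.00.

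BAK1 was likewise highest on the array of p73 shRNA at 40%, and its log2 ratios of 0.11 at 100% and 0.64 at 40% had a mean of 0.37 (limma adjusted p 0.602). BCL2L1 had its larger ratio at confluence, a difference between stages that was not tested. Its brightest probe set had log2 ratios of 0.83 at 100% and 0.33 at 40% (a mean of 0.58 with SE 0.24, limma adjusted p 0.191). Its second probe set had 0.08 and 0.07, and the dimmest 0.05 and -0.14. The probe sets of BCL2L1 therefore disagree on the size of the hairpin ratio, and at 40% on its sign. With the mean of its probe sets the average was 0.20 (limma adjusted p 0.806).

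The BNIP3 pair had smaller ratios with the hairpin than with confluence. BNIP3 had log2 ratios of -0.03 at 100% and 0.05 at 40% on its brighter probe set (average 0.01, 95% interval -0.27 to 0.29, limma adjusted p 0.992) and -0.29 and -0.11 on the other. BNIP3L was lower with p73 shRNA, with log2 ratios of -0.26 at 100% and -0.47 at 40% (average -0.36, 95% interval -0.65 to -0.08, limma adjusted p 0.182). Its second probe set gave -0.10 and -0.41.

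For the other tested members the intervals of the average ratio were -0.34 to 0.46 for BCL2L2, -0.22 to 0.34 for MCL1 and -0.22 to 0.39 for BID. A 2-fold change lies outside each of these intervals. The intervals use the spread pooled over genes, which no replicate of a culture backs.

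The rest of the pathway was read from lists of genes, each described by its calls and by its median log2 ratio at confluence, beside 0.01 for all genes. Over all genes 20.4% were called higher and 16.1% lower at confluence, and no list was tested against these shares. Among 6 other BCL2 family members above the filter (median 0.22), PMAIP1, the BH3-only protein NOXA that binds MCL1, rose at confluence (log2 ratio 0.73 with p73 shRNA and 1.22 with ns shRNA, limma adjusted p 4.60e-09). MOAP1, a partner of BAX, rose as well (average 1.03) and BNIP1, a membrane fusion protein of the endoplasmic reticulum, fell (average -0.62). With p73 shRNA 0 of the 6 were called by limma. BAX, the other main pore former, averaged 0.29 at confluence (limma adjusted p 0.264).

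Downstream of the mitochondria, 12 genes of the apoptosome, the caspases and mitochondrial release were above the filter (median -0.01), and at confluence 2 rose and 2 fell. APAF1, the scaffold of the apoptosome, rose by 1.24 with p73 shRNA and 0.86 with ns shRNA, and CASP9, the caspase it activates, averaged 0.63. CYCS, cytochrome c, fell (log2 ratio -0.64 with p73 shRNA and -1.15 with ns shRNA), and CASP6, an executioner caspase, averaged -0.42. Both inhibitors of apoptosis above the filter fell (median -0.72): BIRC2 averaged -1.05 (limma adjusted p 2.89e-12) and BIRC5, survivin, which also acts in mitosis, -0.40. The calls of CASP6 and BIRC5 were lost without the intensity trend.

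Upstream of BID, 4 of 8 death receptor genes rose at confluence and 1 fell (median 0.52). The receptor TNFRSF10B averaged 1.02, FAS 0.90 and TNFRSF1A 0.71, and the adaptor TRADD 0.65. PEA15, a death effector domain protein that restrains caspase-8 activation, averaged -0.68. Of all genes 20.4% were called higher, and the list was not tested against that share.

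Genes of mitophagy and the LC3 family were mixed: of 15, 3 rose and 1 fell at confluence (median 0.01). The receptors NBR1 (average 0.92) and OPTN (0.54) and the mitochondrial anchor FKBP8 (0.64) rose, and SQSTM1, the receptor p62, averaged -0.61, with -1.02 under p73 shRNA and -0.19 under ns shRNA. MAP1LC3B, the LC3B protein that BNIP3 binds, averaged -0.12 (limma adjusted p 0.587). GABARAP (0.06), GABARAPL1 (0.57) and GABARAPL2 (0.01), also of the LC3 family, were not called, though GABARAPL1 was without the trend (limma adjusted p 0.0437). Among 5 HIF subunits and oxygen sensors (median 0.40), ARNT (0.68) and EPAS1 (0.40) rose, with the EPAS1 call lost without the trend, while HIF1A averaged -0.08 (limma adjusted p 0.704). FOXO3, the 1 FOXO factor above the filter and a known regulator of BNIP3 and BCL2L11 transcription, rose by 0.51. Its log2 ratio was 0.24 with p73 shRNA and 0.78 with ns shRNA.

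Of 6 genes of 14-3-3 proteins, which hold BAD in the cytosol, YWHAH fell (average -0.69, list median -0.13), and of 5 BAG co-chaperones BAG2 fell (-0.72, list median -0.32). Among 6 genes that control MCL1 turnover (median 0.17), USP9X, a deubiquitinase that stabilises MCL1, rose at confluence (0.72) and USP13 fell (-0.38), a call lost without the trend. With p73 shRNA the only called gene of all these lists was HUWE1, a ubiquitin ligase for MCL1, on a probe set whose name marks possible binding of other sequences. It read 19755 with p73 shRNA and 17010 with ns shRNA at 100%, and 23487 with p73 shRNA and 9773 with ns shRNA at 40%, so its difference lay mostly at 40%, and its call (average 0.74, limma adjusted p 1.03e-05) was lost without the trend (limma adjusted p 0.132).

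The genes whose log2 values over the 4 arrays ran closest to a member were found by the distance between profiles centred on their mean, for the 5 members that spanned at least 1 on the log2 scale. For BNIP3 they were CBLB, LXN and TPCN1 (distances 0.08 to 0.10), and for BNIP3L they were ARG2, NFIL3 and THBS2 (0.11 to 0.13). TRIM14, ST20 and ALG13 were nearest to BCL2L1, UPP1, HRAS and ATAD5 to BAK1, and ZBTB17, MUTYH and EFNA5 to BAD. With 4 arrays and 6759 genes close profiles are easily found, and nothing is read from them.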

How the data were processed

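The authors deposited 1 linear intensity per probe set and array. Per the labels, trizol-extracted total RNA was biotin-labelled for Affymetrix arrays. Software for summarising them: not given in the sources used here. Scale (linear) and the common mean were found from the values. Of 22277 probe sets 62 were controls, 19064 had 1 gene symbol (19052 matched to current symbols by Entrez ID), 1043 had several and 2108 were not listed. The pseudocount is the 20th percentile of all values and the filter the median of probe set means. Genes were tested by their brightest probe set with limma 3.58.1 (R 4.3.3): confluence and shRNA as additive terms over 4 arrays, 1 residual degree of freedom, intensity trend, two-sided, Benjamini-Hochberg over 6759 genes, threshold 0.05. Prior degrees of freedom were infinite with the trend and 15.8 without. Single-pair ratios have no test. The model was tested on simulated data. All 10 members are named, with called list genes (up to 4 per list and comparison) and 3 nearest profiles. BAX, MAP1LC3B, GABARAP, GABARAPL1, GABARAPL2 and HIF1A are named outside this rule, after their values were seen. Members and lists were chosen with earlier results of these data known. Figures used matplotlib 3.10.9.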

Additional observations from a re-analysis of the deposited data

Results flagged for a closer look

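Some members had ratios of opposite sign in the 2 pairs of arrays of a comparison. These differences were not tested, since each ratio comes from 1 pair. For BAD the confluence ratio was lower with p73 shRNA than with ns shRNA by a log2 difference of -0.88, and 4.11% of all genes had a difference at least as large. For BCL2L2 the p73 shRNA ratio at 100% was above that at 40% by 0.36, a size reached by 32.6% of genes. The differences of MCL1 (-0.16, in either comparison, which is the same quantity) and of BNIP3 (-0.085, p73 shRNA ratio at 100% minus that at 40%) were reached by 64.9% and 81.6% of genes.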

How the results depend on the processing

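Alternatives were quantile normalization, median scaling, other pseudocounts (5th and 40th percentile), other brightness filters (none, 70th percentile), averaging probe sets or fitting each, limma without its trend, and a model without the other factor. Of the BCL2 family members, 0 were called with p73 shRNA under any of these. For confluence, 4 were called, and BNIP3 and BNIP3L remained called higher under each alternative. The count was 2 without the filter, with the 70th percentile (5 members tested) and without the other factor. It was 3 with the mean of probe sets, 5 after quantile normalization, 5 with each probe set fitted and 6 after median scaling. With the other pseudocounts and without the trend it stayed at 4. Over all genes, the p73 shRNA count of 184 became 105 (quantile), 4 (no filter), 40 (mean of probe sets), 74 (no trend) and 0 without the other factor (limma; 58 at an unadjusted p below 0.05). The confluence count of 2471 became 1555 without the filter and 1345 without the other factor. The direction turned for values near 0: with p73 shRNA, MCL1 (-0.034) and BNIP3 (-0.10) with the mean of probe sets, and at confluence MCL1 after quantile normalization (0.011). The cause was not tested. Signal over background limits what is seen of BCL2 and BCL2L11. No paired analysis was possible by replicate number because each group has 1 array; the additive model already compares stages within each hairpin and hairpins within each stage, and the model without the other factor drops this. Leaving out an array leaves no residual degree of freedom.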
